A study of Mus musculus with 12 samples.

Results

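NPC clone mE6 is a clonal neural progenitor line grown from the male hybrid embryonic stem (ES) line F1-23, and it is 1 of 10 libraries with values in the study. Every library carried a 129Sv and a Cast/EiJ genome, so that reads over strain variants show which allele they came from. mE6 was set against its 3 sister clones mC3, mB4 and mG3, which are also XY neural progenitor cell (NPC) lines of F1-23 (n = 1 library each). The XX NPC clones 129, C2, G4 and E1.2, the XY ES line F1-23 and the XX ES line F1-21.6 served as libraries outside that comparison. No treatment or mutation was given for any line. Each library is 1 clone, so a difference between mE6 and its sisters is a difference between clones, and mE6 has no replicate of its own. The 14415 autosomal genes of the table were examined, of 14899 in all.

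In random autosomal monoallelic expression, a clone of cells transcribes a gene from a single allele, while other clones of that cell type use the other allele or both. The state is passed on through cell division, so a clone shows it in bulk RNA, while a mixed population would show both alleles. In progenitors derived from ES cells the state can be acquired during differentiation. Imprinted genes are another class, in which the parent of origin sets the expressed allele.

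The total of allele-informative counts was 82161686 in mE6 and ran from 72230497 to 91955553 in the sisters. The neural progenitor markers Nes, Sox2, Pax6, Fabp7, Vim, Slc1a3 and Olig2 each had at least 1 FPKM (fragments scaled by transcript length and sequencing depth) in mE6. Nes, a neural progenitor filament protein, had 298 FPKM in mE6 and 223 to 347 FPKM in the sisters, and Sox2, a progenitor transcription factor, had 65.6 FPKM in mE6 and 68.4 to 94.3 FPKM in the sisters. The ES lines had been grown on inactivated fibroblasts. None of the 6 fibroblast markers in the table reached 1 FPKM in mE6, where Dcn and Postn were at 0, and together they summed to 0.925 FPKM in mE6 and 0.977 to 1.0 FPKM in the sisters. The neuron markers summed to 8.61 FPKM in mE6 and 7.92 to 12.8 FPKM in the sisters, and the astrocyte markers to 12.5 FPKM in mE6 and 4.61 to 66.8 FPKM in the sisters. Of the neuron markers, Snap25 (0.684 FPKM in mE6) and Rbfox3 (0.563 FPKM) were above every sister. Dcx (0.671 FPKM in mE6) was below every sister. The oligodendrocyte markers summed to 41.3 FPKM in mE6 and 22.1 to 63.5 FPKM in the sisters, mostly from Cnp. The only ES marker in the table, Esrrb, was at 1.24 FPKM in mE6 and 0.818 to 1.90 FPKM in the sisters, and Foxa2 and Gata4, the endoderm markers in the table, were below 0.1 FPKM in mE6.

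A gene was called monoallelic with at least 20 counts and at least 85% of them from 1 allele, and biallelic with at most 70% from the major allele. In mE6, 857 of 12334 testable autosomal genes (6.95%, exact 95% interval 6.51 to 7.41) were monoallelic. The share was 6.41% in mC3, 5.83% in mB4 and 6.42% in mG3. Of the 857 genes, 548 were also monoallelic in at least 1 sister, and for 183 all 3 sisters used the allele of mE6. Another 55 had fewer than 20 counts in every sister. The genes that set mE6 apart were 64 that were monoallelic in mE6 and biallelic in all 3 sisters, 0.546% of the 11726 genes testable in all 4 clones. The other clones had fewer such genes by the same rule, with 33 in mC3, 49 in mB4 and 39 in mG3. At a minimum of 100 counts the number was 49 in mE6, against 25 in mC3, 23 in mB4 and 22 in mG3. With 1 sister left out the rule asks for less, and the count for mE6 was 111 without mC3, 93 without mB4 and 105 without mG3.

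**Figure D1:**
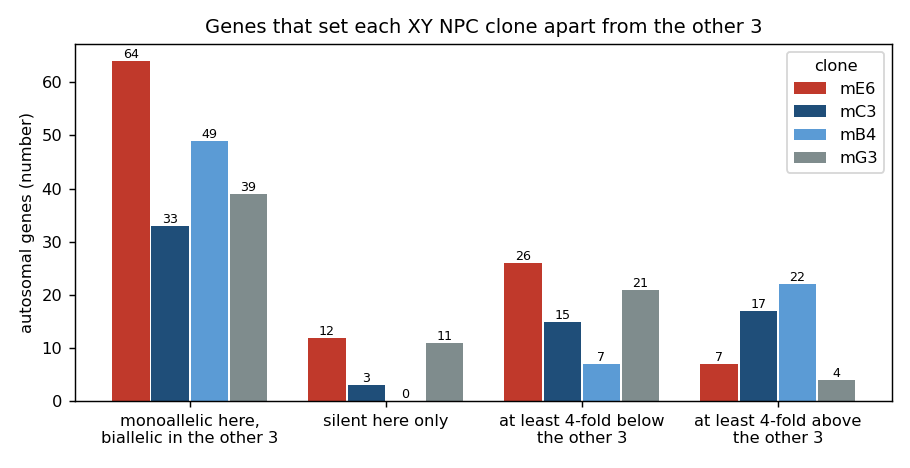
Number of autosomal genes (vertical axis) that set each XY NPC clone apart from the other 3, for 4 classes, with 1 bar per clone and the number above it. mE6 had 64 genes monoallelic in it alone, against 33 to 49 in the sisters, and 12 silent genes, against 0 to 11.

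Of the 64 genes, 37 expressed the 129 allele and 27 the Cast allele. In mE6, 22 of them took at least 99% of their counts from 1 allele and 33 at least 95%, and 7 had no count at all from the other allele. Members had a median of 660 counts in mE6, from 21 to 50327, and 12 had fewer than 100. At the edges of the rule, Gm9079 was just inside with 85.2% from its major allele in mE6 and Slc16a14 just outside with 84.6%. Among the sisters, Fam167a was just inside with 69.9% in its most unequal sister and Gfra4 just outside with 70.1%.

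The deepest member was Anxa6, which encodes annexin A6, a calcium-dependent membrane-binding protein (mm9 chromosome 11, 54791664 to 54846973). It had 50327 counts in mE6, of which 99.1% (exact 95% interval 99 to 99.2) came from 129. The 129 share was 50.3% in mC3, 52.0% in mB4 and 51.7% in mG3, so mE6 stood far outside the sisters. Total Anxa6 was 98.4 FPKM in mE6, against 206 FPKM in mC3, 176 FPKM in mB4 and 249 FPKM in mG3. In bulk RNA, fewer cells that express a gene and less RNA per cell cannot be told apart. Counts of the 129 allele scaled by library depth (CPM) were 602 in mE6, between the 565 CPM of mB4 and the 765 CPM of mG3. The Cast allele was at 5.32 CPM in mE6, against 521 to 716 CPM in the sisters. Total Anxa6 in mE6 was therefore below every sister while its 129 allele was within their range.

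The promoters of 2 members, windows of 300 bases that mostly precede the annotated start, are shown because CpG content is a sequence feature that the allele rule did not use. All 4 promoters printed here are on the minus strand of mm9 and read 5′ to 3′, with CpG dinucleotides in capitals. The Anxa6 window is chr11:54846924-54847223 and holds 19 CpG, and 50% of 12833 promoter windows of the same length hold at least that many. The Abhd14a window is chr9:106349970-106350269 and holds 13 CpG, a number reached by 67.0% of windows.
Anxa6: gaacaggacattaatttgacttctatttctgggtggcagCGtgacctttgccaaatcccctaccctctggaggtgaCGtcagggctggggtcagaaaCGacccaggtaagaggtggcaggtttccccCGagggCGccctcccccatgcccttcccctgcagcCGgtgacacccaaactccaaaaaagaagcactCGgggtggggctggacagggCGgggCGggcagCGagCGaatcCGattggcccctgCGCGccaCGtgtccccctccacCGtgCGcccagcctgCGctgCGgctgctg
Abhd14a: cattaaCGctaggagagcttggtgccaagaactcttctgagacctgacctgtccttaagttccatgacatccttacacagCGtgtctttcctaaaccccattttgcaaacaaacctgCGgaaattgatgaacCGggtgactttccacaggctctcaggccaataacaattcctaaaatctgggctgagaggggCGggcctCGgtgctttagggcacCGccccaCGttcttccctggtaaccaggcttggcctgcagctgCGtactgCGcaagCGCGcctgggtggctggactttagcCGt
A window could be placed for 56 of the 64 members, at the deposited 5′ end of the gene. Apart from the printed genes, these ends were not checked against annotated transcript starts. The median of the 56 windows was 13.5 CpG, against 20 CpG over the 10793 windows of all genes testable in the 4 clones. Fewer than 10 CpG were found in 16 of the 56 windows (28.6%), against 20.9% of all windows.

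Smug1, Umps, Abhd14a, Ust and Inpp1 encode enzymes or proteins with an enzyme fold. Smug1, a uracil-DNA glycosylase of base excision repair (chromosome 15, 102983721 to 102993760), had a 129 share of 99.9% in mE6, against 51.9% in mC3, 54.7% in mB4 and 48.8% in mG3. Its level was 3.05 FPKM in mE6 and 6.82 ± 0.10 FPKM in the sisters (SD, n = 3). Umps, which carries out the last steps of pyrimidine synthesis (chromosome 16, 33955098 to 33967120), kept the Cast allele instead. Its 129 share was 0.429% in mE6, against 44.7% in mC3, 48.2% in mB4 and 45.3% in mG3. Abhd14a, an alpha/beta hydrolase domain protein (chromosome 9, 106342382 to 106350019), had a 129 share of 0.532% in mE6, against 49.9% in mC3, 51.9% in mB4 and 49.3% in mG3. Ust, a sulfotransferase that modifies chondroitin and dermatan sulfate (chromosome 10, 7924551 to 8238623), had a 129 share of 0.637% in mE6 and 44.9% to 53.6% in the sisters. Inpp1, an inositol polyphosphate 1-phosphatase, had a 129 share of 98.0% in mE6, against 51.6% in mC3, 65.5% in mB4 and 54.6% in mG3. All 5 genes were biallelic in the sisters by the rule, so these shares are descriptions of what was selected.

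Arap1, Palld, Col18a1 and Cdh20 are linked to the cytoskeleton, matrix or adhesion. Arap1, a GTPase-activating protein for Arf family proteins (chromosome 7, 108496583 to 108561100), had a 129 share of 97.5% in mE6 from 16160 counts, against 65.9% in mC3, 62.6% in mB4 and 65.4% in mG3. Palld encodes palladin, which binds actin (chromosome 8, 63989392 to 64381487). Its 129 share was 12.9% in mE6, against 51.1% in mC3, 47.7% in mB4 and 43.7% in mG3. Col18a1, a basement membrane collagen, had a 129 share of 88% in mE6, against 63.6% in mC3, 42.8% in mB4 and 55.7% in mG3. Cdh20, a classical cadherin (chromosome 1, 106664527 to 106892058), was at 0.221% in mE6, against 44.1% in mC3, 37.2% in mB4 and 32.6% in mG3. Palld and Col18a1 thus kept a measurable second allele in mE6, while Cdh20 nearly lacked it.

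Some members share reads with a neighbour, so they are not independent. Fam111a, which encodes a protease, and A330040F15Rik overlap on chromosome 19 (12648015 to 12664186 and 12659156 to 12671056). Both had 4599 counts in mE6 with a 129 share of 99.8%, and 49.6% to 51.3% in the sisters. The authors' FPKM assigned most of the signal to Fam111a, which had 15.1 FPKM in mE6, against 0.0868 FPKM for A330040F15Rik in mE6. Serpinb6a, a serine protease inhibitor, and Nqo2, a quinone reductase, also overlap (chromosome 13, 34009787 to 34094663 and 34056458 to 34080871). Their 129 shares were 93.9% and 95.6% in mE6, against 54.2% to 61.1% (Serpinb6a) and 48% to 59.4% (Nqo2) in the sisters. In all, 6 members overlapped another member.

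The fixed gene lists held 4 of the 64 members. Besides Cdh20 and the imprinted gene Impact they were 2 axon guidance ligands at low level. These were 2 of 36 axon guidance genes testable in all 4 clones, against 0.546% of all such genes. Slit2, a secreted repellent read by Robo receptors, had a 129 share of 1.08% in mE6 from 93 counts, against 46.1% in mC3, 31.6% in mB4 and 37.7% in mG3. Efna5, the Eph receptor ligand ephrin-A5, had a 129 share of 7.69% in mE6 from 65 counts (exact 95% interval 2.54 to 17.0), against 34.1% in mC3, 51.5% in mB4 and 42.2% in mG3. Its level was 0.479 FPKM in mE6, against 2.71 FPKM in mC3, 1.16 FPKM in mB4 and 4.37 FPKM in mG3. Of the 40 axon guidance genes tested for expression, none passed with edgeR in either direction. An unadjusted edgeR p under 0.05 was found for 2, against 2.42% of all genes tested. In mE6, 19 of the 40 were below every sister and 4 above, against 18.4% and 18.7% of all testable genes. The median log2 difference of the 40 genes was -0.39, against -0.01 over all 13670 genes tested.

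**Figure D2:**
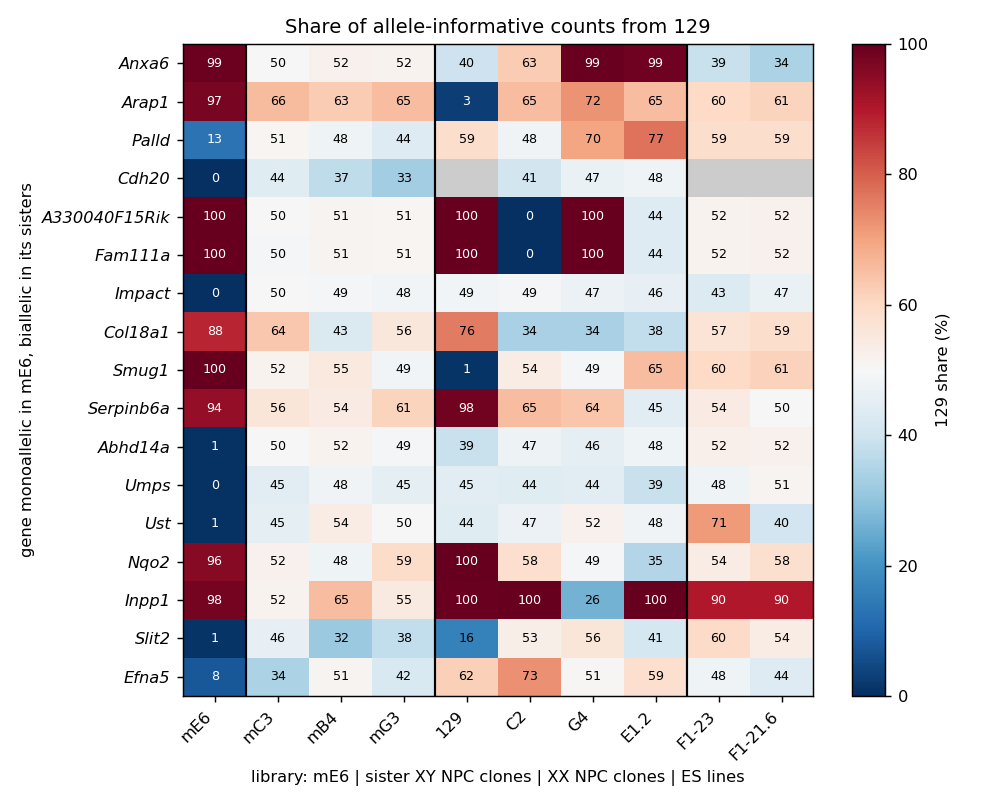
Share of allele-informative counts from 129 (colour and number, in percent) for the 17 named genes that were monoallelic in mE6 and biallelic in its sisters, in mE6, the sisters, the XX NPC clones and the ES lines. Grey cells had fewer than 20 counts. The mE6 column holds shares of at most 12.9% or at least 88%, the sister columns shares from 31.6 to 65.9%, and several XX clones again hold extreme shares, as for Inpp1 and Fam111a.

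The allele share of mE6 was also tested against the sisters with edgeR's quasi-likelihood test on counts per allele, in which the spread among the sisters gives the error and mE6 is assumed to vary as they do. Of 11726 genes, 29 passed a Benjamini-Hochberg adjusted p of 0.05 (0.247%), 13 with a higher 129 share in mE6 (0.111%) and 16 with a lower one (0.136%). They included 22 of the 64 genes, a count that the rule itself favours. For Anxa6 the log2 odds ratio was 6.75 ± 0.0858 (SE, adjusted p = 0.000235, edgeR), and for Impact -11.77 ± 0.178 (adjusted p = 0.000235, edgeR). Smug1 (adjusted p = 0.00114), Umps (0.000870), Abhd14a (0.000517), Ust (0.00451), Arap1 (0.00132) and Palld (0.0390) also passed with edgeR. The calls of Impact, Umps, Abhd14a and Ust held in all alternatives run. With the error taken from all 8 NPC clones, those of Anxa6, Smug1, Arap1 and Palld were lost (edgeR adjusted p = 1 each). That of Palld was also lost with the non-robust fit (edgeR adjusted p = 0.0731) and without mC3 (0.109) or mB4 (0.262). Col18a1 (adjusted p = 0.851), Inpp1 (0.0715), Slit2 (0.329) and Efna5 (0.632) did not. The count was 16 without mB4, 21 without mC3 and 32 without mG3, and 9 when the error was taken from all 8 NPC clones.

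The total level of the 64 genes was not used by the allele rule. The median of their FPKM in mE6, as a percentage of the sister mean, was 58.1%. On the scale of log2(FPKM + 0.1) the median difference was -0.65, against 0.00 over all 11726 genes. In mE6, 42 of the 64 were below every sister (65.6%), against 18.4% of all genes, and 3 were above every sister (4.69%), against 18.7%. Among the 22 members with at least 1 FPKM and at least 95% of counts from 1 allele, 21 were below every sister, with a median of -0.84. No member passed the test of expression with edgeR, and 20 of the 64 had an unadjusted p under 0.05, against 2.42% of the 13670 genes tested. DESeq2 called 10 members lower and 0 higher, against 0.738% of all genes lower and 0.0952% higher. The sisters' own monoallelic genes, chosen by the same rule, had medians of -0.71 in mC3, -0.78 in mB4 and -0.68 in mG3 on the same scale.

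Split by allele, the allele that mE6 expressed had a median of 110% of its mean CPM in the sisters, and the other allele 4.60%. Over all 11726 genes, split in the same way, the medians were 103% and 96.3%. The rule used the shares behind this split, so a low value for the other allele largely follows from it. The expressed allele was within 1.5-fold of the sister mean for 45 of the 64 genes (70.3%), against 89.5% of all genes. Impact expressed its Cast allele at 48.8 CPM in mE6, above the 33.8, 40.8 and 44.1 CPM of mC3, mB4 and mG3, while its 129 allele was at 0.0121 CPM in mE6 and 33.8 to 41.4 CPM in the sisters. Abhd14a had 42.9 CPM from Cast in mE6, within the 35.1 to 46.3 CPM of the sisters, and 0.229 CPM from 129 in mE6, against 36 to 45 CPM in the sisters. For Ust the Cast allele was at 33.9 CPM in mE6, just below the 34.2 to 50.7 CPM of the sisters.

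**Figure D3:**
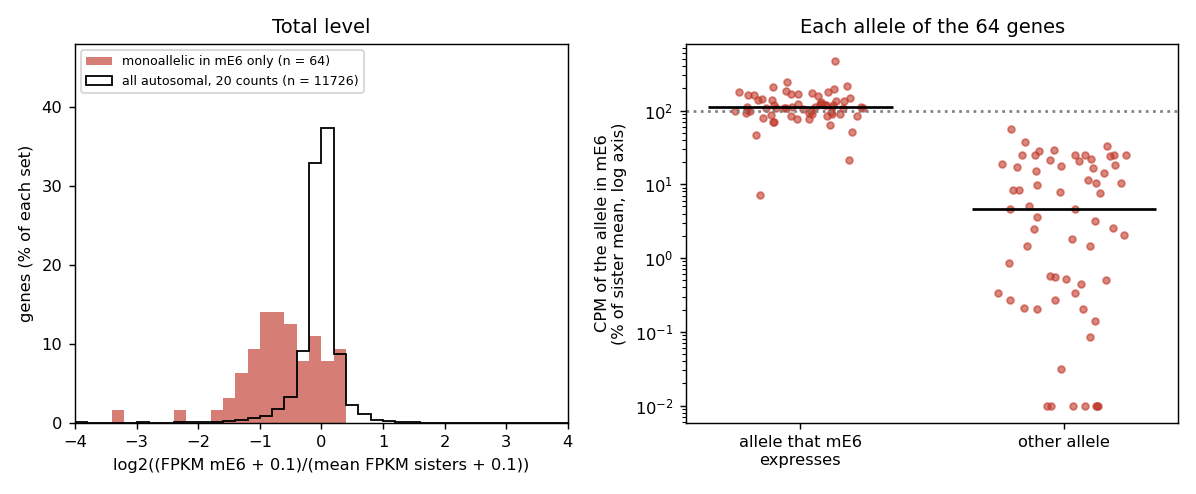
Left, distribution of log2((FPKM mE6 + 0.1)/(mean FPKM sisters + 0.1)) for the 64 genes monoallelic in mE6 only (bars) and the 11726 testable autosomal genes (line), in percent of each set. Right, CPM of each allele in mE6 as a percentage of the sister mean on a log axis, with 1 point per gene and a line at the median. The expressed allele lies around 110% and the other allele around 4.60%, with 7 genes that had none drawn at 0.01%. The rule used the shares behind the right panel.

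The allele shares of the 64 genes in 6 libraries were not used by the rule. In the XY ES line F1-23, from which mE6 was grown, 44 of the 58 testable members were biallelic and 4 monoallelic (6.90%, against 3.67% of all testable genes). In the XX ES line F1-21.6 the numbers were 43 and 8 of 58 (13.8% monoallelic, against 4.28%). In the XX clone 129, 27 of 52 testable members were biallelic and 15 monoallelic (28.8%, against 6.55%). The numbers were 45 and 7 of 63 in C2 (11.1% monoallelic, against 4.29%), 44 and 9 of 61 in G4 (14.8%, against 4.67%), and 46 and 7 of 60 in E1.2 (11.7%, against 4.19%). Of the 64, 20 were biallelic in every XX clone in which they were testable. In all, 24 of the 64 (37.5%) were monoallelic in at least 1 XX clone, against 11.2% of the 11726 genes. Anxa6 took 99.3% of its counts from 129 in clone G4 and 98.8% in clone E1.2, the same allele as in mE6, but 62.8% in C2 and 39.6% in clone 129. Smug1 used the other allele in clone 129, with a 129 share of 1.05%. Inpp1 was monoallelic for 129 in clones 129, C2 and E1.2, and its 129 share was 90.2% in F1-23 and 89.9% in F1-21.6. Impact, Umps and Abhd14a were biallelic in all 4 XX clones and both ES lines.

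The 64 genes were spread over all 19 autosomes, with at most 6 on 1 chromosome. Of their 128 neighbours with at least 20 counts in mE6, 111 were biallelic there (86.7%), against 87.7% of all genes, and 6 were monoallelic. Both neighbours were biallelic for 47 members. Abhd14a lies 1.65 kb from Acy1 and 5.39 kb from Pcbp4, which had 129 shares of 45.4% and 53.0% in mE6. Whole chromosomes were balanced, with a median 129 share per autosome of 49.5 to 50.3% in mE6 and 49.6 to 50.3% in the sisters. The median log2 level per autosome in mE6 relative to the sisters ran from -0.02 to 0.04.

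A further 58 genes were monoallelic in mE6 for 1 allele and in at least 1 sister for the other. In 4 of them all 3 sisters used the other allele, and 11 had at least 500 counts in mE6. The deepest was 8430419L09Rik (chromosome 6, 135147910 to 135186258), with a 129 share of 99.8% in mE6, against 2.20% in mC3, 0.0348% in mB4 and 0.0267% in mG3. It had 3.45 FPKM in mE6 and 4.49 to 5.57 FPKM in the sisters. Anxa5, an annexin that binds phosphatidylserine (chromosome 3, 36347846 to 36374809), had a 129 share of 93.6% in mE6, against 1.3% in mC3, 39.5% in mB4 and 36.9% in mG3. Lyplal1, a lysophospholipase-like protein, had a 129 share of 99.8% in mE6, against 47.7% in mC3, 99.9% in mB4 and 0.101% in mG3. All 3 states were thus present among 4 clones of 1 line for Lyplal1.

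Zfp641, a zinc finger gene, had a 129 share of 1.63% in mE6, against 3.26% in mC3, 39.6% in mB4 and 90.9% in mG3, where it had only 33 counts. E330016A19Rik had a 129 share of 2.53% in mE6 and 100% in all 3 sisters, at 1.60 FPKM in mE6 and 0.0708 to 0.655 FPKM in the sisters. Cdkn1c, an imprinted inhibitor of cyclin-dependent kinases, used 129 alone in mE6 (100% of 1415 counts) and mC3, used Cast in mB4 (0.444% from 129) and had 0 counts in mG3. The HoxD genes of the body axis code shared a pattern across neighbours. Hoxd3, Hoxd8 and Hoxd9 had 129 shares of 100%, 99% and 99.6% in mE6, against 2.27%, 0.217% and 0.476% in mB4 and 47.8 to 62.0% in mC3 and mG3. These 3 genes lie within 1 cluster on chromosome 2 and are not independent. No gene of this class passed the allele test, in which the sisters' own spread is the error. Its promoters held a median of 9 CpG in 49 windows, against 20 CpG in all 10793 windows, and 55.1% held fewer than 10, against 20.9% of all windows.

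Of the imprinted genes expressed from the paternal allele, 24 were in the table, and 18 of them had at least 20 counts in all 4 clones. In mE6, 13 of the 24 were monoallelic, against 6.95% of all autosomal genes with at least 20 counts in mE6. Impact, which restrains the kinase GCN2 (chromosome 18, 13130761 to 13151457), was the only one that was biallelic in all 3 sisters. Its 129 share was 0.0248% in mE6, against 50% in mC3, 49% in mB4 and 48.4% in mG3, and it was 43% in F1-23. The share was 45.8 to 49.2% in the XX clones and 46.6% in F1-21.6, so only mE6 used a single allele. Peg12, Ndn and Kcnq1ot1, named after their values were seen, were also near 0 in mE6 and unequal among the sisters. Peg12 had a 129 share of 0.0785% in mE6, against 45.9% in mC3, 44.0% in mB4 and 3.63% in mG3. Ndn had 0.699% in mE6, against 42.9% in mC3, 6.18% in mB4 and 5.38% in mG3. Kcnq1ot1, whose reads overlap Kcnq1, had 0.0400% in mE6, against 2.65% in mC3, 61.8% in mB4 and 56.0% in mG3.

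A row that joins H13 with Mcts2, an imprinted retrogene inside H13, had a 129 share of 21.8% in mE6, against 44.8% in mC3, 42.7% in mB4 and 43.9% in mG3 (log2 odds ratio -1.48 ± 0.0994 SE, edgeR adjusted p = 0.0284). The overlapping H13 row had 23.5% in mE6 and 42.2 to 44.1% in the sisters (edgeR adjusted p = 0.0441), and the reads of the 2 rows cannot be separated. Among maternally expressed genes, 5 of the 26 in the table were monoallelic in mE6, against the same 6.95%. Of the 14 with at least 20 counts in all 4 clones, only H13 passed the allele test, against 0.247% of all genes. The call of H13 was lost with the non-robust fit (edgeR adjusted p = 0.0701), with the error from all 8 NPC clones (0.70) and with any sister left out (0.142 to 0.200). That of the joined row was lost with all 8 NPC clones (edgeR adjusted p = 0.668) and with any sister left out (0.0967 to 0.153). Among 17 housekeeping genes, only Gusb, a lysosomal glucuronidase, passed the allele test, with a 129 share of 71.3% in mE6, against 47.7% in mC3, 50.2% in mB4 and 48% in mG3 (edgeR adjusted p = 0.0295). The call of Gusb was lost with the non-robust fit (edgeR adjusted p = 0.0611), with all 8 NPC clones (1) and with any sister left out (0.101 to 0.165).

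Genes were called silent in mE6 only below 0.1 FPKM in mE6 and at 1 FPKM or more in every sister. There were 12, 0.123% of the 9745 autosomal genes at 1 FPKM or more in every sister. By the same rule mC3 had 3, mB4 0 and mG3 11. The genes had different roles, in lipid storage (Plin2), lipid antigen display (Cd1d1), DNA repair (Neil3), cytokine signalling (Ltbr), growth factor reception (Gfra4) and the membrane skeleton (Epb4.1l3). One of them, Pcdhgb5, was low in FPKM but not in counts, as given below. Epb4.1l3, Gfra4 and Fndc1 also kept at least 20 counts in mE6, with 106, 41 and 26. Their 129 shares in mE6 were 100%, 2.44% and 53.8%. With the added condition of fewer than 20 counts in mE6, chosen after seeing the data, 8 remained.

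Nap1l5, an imprinted retrogene of the nucleosome assembly family (chromosome 6, 58855227 to 58857120), led the class. It was at 0.0963 FPKM in mE6, against 37.4 FPKM in mC3, 105 FPKM in mB4 and 38.7 FPKM in mG3. It had 3 counts in mE6, 414-fold lower in CPM than the sister mean (counting interval 142 to 2007). Nap1l5 lies inside Herc3, so reads can be shared. Plin2 (chromosome 4, 86273107 to 86316012) encodes a lipid droplet coat protein and had 0 counts in mE6, against 2491 in mC3, 1732 in mB4 and 2238 in mG3. With a floor of 3 counts in mE6, this was at least 703-fold lower in CPM. The promoter windows of both genes are given, as the classes silent in mE6 and far below held medians of 13 and 14 CpG. Nap1l5 has 17 CpG in chr6:58857071-58857370, reached by 55.9% of windows, and Plin2 has 7 in chr4:86315963-86316262, reached by 81.5%.
Nap1l5: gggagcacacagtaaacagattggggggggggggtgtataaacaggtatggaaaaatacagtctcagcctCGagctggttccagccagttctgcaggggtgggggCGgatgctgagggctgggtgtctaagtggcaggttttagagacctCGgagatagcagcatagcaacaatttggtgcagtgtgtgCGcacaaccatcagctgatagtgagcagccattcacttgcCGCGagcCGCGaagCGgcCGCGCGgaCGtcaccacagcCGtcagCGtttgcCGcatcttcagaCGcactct
Plin2: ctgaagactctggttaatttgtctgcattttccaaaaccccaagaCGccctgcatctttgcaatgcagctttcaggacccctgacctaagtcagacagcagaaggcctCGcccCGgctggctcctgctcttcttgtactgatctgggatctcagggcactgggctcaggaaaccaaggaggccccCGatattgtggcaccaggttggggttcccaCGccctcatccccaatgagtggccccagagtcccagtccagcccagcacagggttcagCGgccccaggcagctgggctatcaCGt

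Cd1d1, which displays lipid antigens to natural killer T cells (chromosome 3, 86799758 to 86803262), had 0.0713 FPKM in mE6, against 22.2 FPKM in mC3, 20.3 FPKM in mB4 and 14.7 FPKM in mG3. The adjacent copy Cd1d2, named after its values were seen, had 0.108 FPKM in mE6 and 2.34 to 4.24 FPKM in the sisters. The 2 copies are near-identical, so the split of reads between them is uncertain. Neil3, a DNA glycosylase, had 0.0106 FPKM in mE6, against 6.23 FPKM in mC3, 10.8 FPKM in mB4 and 7.45 FPKM in mG3. Fam149a had 0.0140 FPKM in mE6, against 5.49 FPKM in mC3, 9.60 FPKM in mB4 and 5.89 FPKM in mG3. Its neighbour on chromosome 8, the double-stranded RNA sensor Tlr3, was also far below, with 0.347 FPKM in mE6 and 6.25 to 16.1 FPKM in the sisters.

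Fndc1, a fibronectin type III domain protein, had 0.0269 FPKM in mE6, against 4.17 FPKM in mC3, 10.4 FPKM in mB4 and 4.75 FPKM in mG3. Ltbr, the lymphotoxin beta receptor, had 0.0518 FPKM in mE6, against 6.78 FPKM in mC3, 3.90 FPKM in mB4 and 3.43 FPKM in mG3. Fndc1 was highest in mB4 and Ltbr in mC3. Gfra4, a receptor subunit for a ligand of the GDNF family, had 0.0989 FPKM in mE6, against 3.13 FPKM in mC3, 3.59 FPKM in mB4 and 2.35 FPKM in mG3. Epb4.1l3, a protein 4.1 family member of the membrane skeleton, had 0.0366 FPKM in mE6, against 1.3 FPKM in mC3, 3.01 FPKM in mB4 and 2.50 FPKM in mG3. In all 4 genes mE6 lay below every sister, as the rule requires. Pcdhgb5, a gamma protocadherin whose 3′ exons are common to its cluster, had 0.0921 FPKM in mE6 and 1.23 to 8.35 FPKM in the sisters. Its counts were 93373 in mE6 and 61618 to 96020 in the sisters, as counts cover the shared exons.

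The allele shares of these genes in the sisters, and their levels in XX clones, were not used by the rule. Of the 12 silent genes, 7 (58.3%) were monoallelic in at least 1 sister, against 3.92% of the 9745 genes expressed in all sisters. In 2 of them, sisters used different alleles. Fam149a had a 129 share of 2.88% in mC3, 58.6% in mB4 and 99.7% in mG3. Fndc1 had a 129 share of 2.36% in mC3, 62.5% in mB4 and 100% in mG3. Both genes were thus silent by the FPKM rule, biallelic or monoallelic for either allele in different clones of 1 line. Fndc1 still had 26 counts in mE6, from both alleles.

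Ltbr had a 129 share of 55.8% in mC3, 1.86% in mB4 and 0.288% in mG3, and Nap1l5 had 1.83% in mC3, 53.5% in mB4 and 0.815% in mG3. Neil3 had 95.4% in mC3, 49.3% in mB4 and 54.8% in mG3. Fam149a, Fndc1, Nap1l5 and Neil3 were biallelic in mB4, the sister with the highest level of each. Plin2 and Cd1d1 were biallelic in all 3 sisters, with 129 shares of 31.8 to 44.9% and 54.6 to 60.8%. Plin2 was, however, monoallelic for 129 in the XX clone E1.2, with a 129 share of 100%. It was monoallelic for Cast in G4 (1.02%) and C2 (0%), and biallelic in the ES line F1-23 (49.1%). Cd1d1 was monoallelic for Cast in E1.2 (0.267%), while G4 (16.9%) and C2 (20.2%) lay between the monoallelic and biallelic limits. Clone 129 had fewer than 20 counts of either gene.

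Among XX clones, 10 of the 12 genes (83.3%) were below 0.1 FPKM in at least 1 clone, against 1.42% of the 9745 genes. Each of these 10 was below 0.1 FPKM in clone 129. Plin2, Ltbr, Fam149a and Cd1d1 were below it in no other XX clone, so for them the result rests on that 1 library. The rest were below it in another XX clone too, such as Fndc1 (0.0186 FPKM in C2) and Gfra4 (0.00629 FPKM in E1.2). The 10 include Pcdhgb5, at 0.0949 FPKM in clone 129 but with 33261 counts there. Clone 129 had Plin2 at 0, Ltbr at 0, Fam149a at 0.0351, Cd1d1 at 0.0544 and Fndc1 at 0.0446 FPKM. In G4, by comparison, Plin2 was at 21.4 FPKM and Ltbr at 5.0 FPKM. Neil3 was expressed in all 4 XX clones, from 5.69 to 22.2 FPKM. In the ES line F1-23, 4 of the 12 (33.3%) were at 1 FPKM or more, against 91.1% of the 9745 genes, among them Plin2 at 30.2 FPKM and Neil3 at 4.18 FPKM.

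In the wider class with the lowest sister at least 4-fold above mE6 (FPKM + 0.1), mE6 had 26 genes, 0.267% of the 9745. The number was 15 in mC3, 7 in mB4 and 21 in mG3, and for mE6 it was 45 without mG3. Of the 26, 14 (53.8%) were monoallelic in at least 1 sister, against 3.92% of the 9745. Besides Nap1l5, Plin2, Cd1d1, Neil3, Fam149a, Fndc1, Ltbr and Gfra4, the largest ratios belonged to Crispld2, Klhl22, Pla2g7 and Tlr3. Crispld2, a secreted protein, had 0.183 FPKM in mE6, against 16.8 FPKM in mC3, 10.1 FPKM in mB4 and 8.15 FPKM in mG3. Klhl22, an adaptor of a cullin ubiquitin ligase, had 0.412 FPKM in mE6, against 12.5 FPKM in mC3, 22 FPKM in mB4 and 12.7 FPKM in mG3. Pla2g7, which breaks down platelet-activating factor, had 0.211 FPKM in mE6, against 16.5 FPKM in mC3, 42.2 FPKM in mB4 and 4.73 FPKM in mG3. By CPM, 20 of the 26 also met the ratio, an alternative added after seeing the data.

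**Figure D4:**
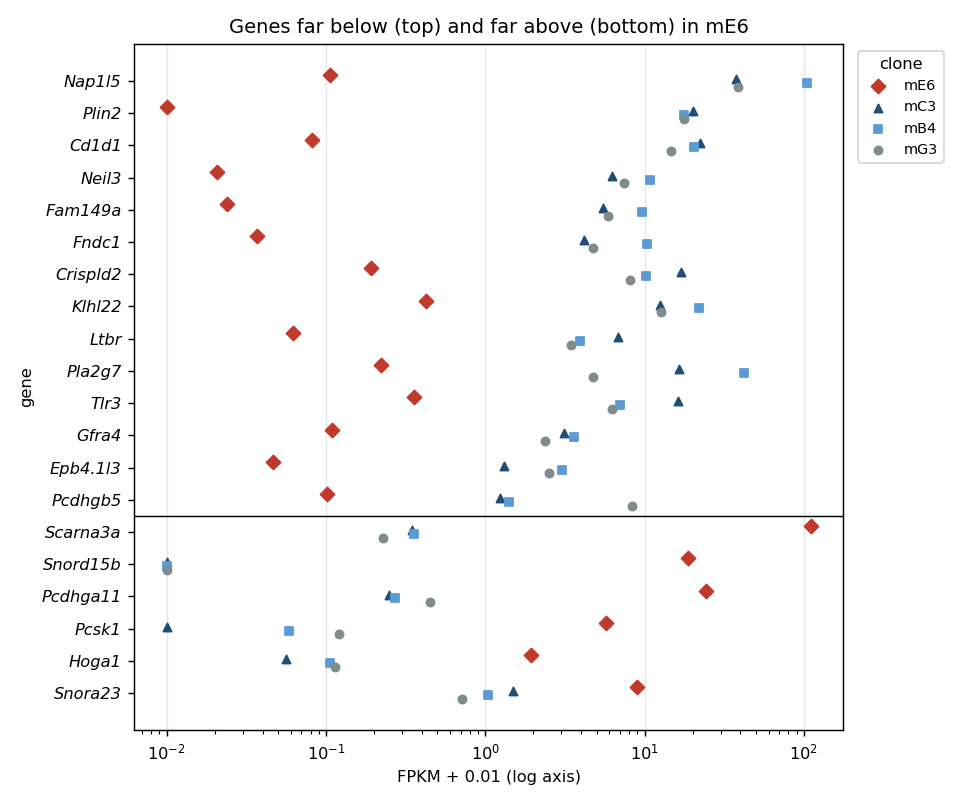
Level (FPKM + 0.01, log axis) of the named genes far below (above the line) and far above (below the line) all sisters, in mE6 (red diamonds), mC3, mB4 and mG3. In every row mE6 is separated from the sisters by at least 4-fold in FPKM + 0.1, and Plin2 in mE6 sits at 0 FPKM.

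Only 7 genes were at least 4-fold above the highest sister, 0.0694% of the 10090 autosomal genes at 1 FPKM or more in mE6, against 17 in mC3, 22 in mB4 and 4 in mG3. The number for mE6 was 15 without mB4, 13 without mG3 and 9 without mC3. Pcsk1, the prohormone convertase 1 (chromosome 13, 75227435 to 75269946), had 932 counts and 5.71 FPKM in mE6. It had 0 counts in mC3, 2 in mB4 and 13 in mG3, and at most 0.110 FPKM. Its transcripts in mE6 came from Cast, with a 129 share of 0.107%. Hoga1, a mitochondrial aldolase, had 1.92 FPKM in mE6, against 0.0459 FPKM in mC3, 0.0953 FPKM in mB4 and 0.104 FPKM in mG3, with a 129 share of 0.351% in mE6. Both genes were therefore expressed almost only from Cast in mE6.

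Another 4 of the 7 genes met the 4-fold ratio in FPKM but not in CPM. Scarna3a had 111 FPKM in mE6 and 0.218 to 0.349 FPKM in the sisters, but 326 counts in mE6 and 203 to 343 in the sisters. Pcdhga11 had 24.2 FPKM in mE6 and 0.238 to 0.439 FPKM in the sisters, with 92375 counts in mE6 and 59581 to 93417 in the sisters. Snord15b had 18.8 FPKM in mE6 and was listed at 0 in the sisters, and Snora23 had 8.98 FPKM in mE6 and 0.705 to 1.47 FPKM in the sisters. On the CPM scale, Snord15b had 0.483 CPM in mE6 and 0.0983 to 0.771 CPM in the sisters. Snora23 had 0.459 CPM in mE6 and 0.0977 to 0.239 CPM in the sisters, 2.67 times the sister mean in mE6. All 4 overlap a larger gene, or share exons with their cluster.

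Expression summed over alleles was tested with edgeR on counts. Of 13670 autosomal genes, 1 was lower in mE6 (0.00732%) and 0 were higher, and 331 had an unadjusted p under 0.05 (2.42%). The gene that passed was Plin2 (fitted log2 difference -14.06 ± 0.467 SE, adjusted p = 0.0333), where mE6 had 0 counts and the fitted size is no bound. DESeq2 called 93 lower (0.738%) and 12 higher (0.0952%) of 12610 genes. With edgeR the count was 0 without mC3, 3 without mB4 and 0 without mG3, and the adjusted p of Plin2 ranged from 2.66e-08 (DESeq2) to 1 (all 8 NPC clones). Nap1l5 (edgeR adjusted p = 0.903), Cd1d1 (0.111), Neil3 (0.223), Fam149a (0.300) and Gfra4 (0.300) did not pass with edgeR. DESeq2 called each of these genes lower in mE6, with fitted log2 differences from -10.9 (Fam149a) to -5.19 (Gfra4).

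Of the 22 gene lists, only that of lipid droplet and cholesterol synthesis genes held a gene that edgeR called for expression, and the HoxB list had no gene tested. In the lipid list, Plin2 fell and the other 28 did not pass, with a median log2 difference of -0.05. In mE6, 17 of the 29 genes of this list were below every sister and 4 above. Over all testable genes the shares were 18.4% and 18.7%. In that list Srebf1, a sterol response factor, had 99.3 FPKM in mE6 and 71.8 to 82.2 FPKM in the sisters. Scd1, a fatty acid desaturase, had 182 FPKM in mE6 and 70.3 to 141 FPKM in the sisters, and its 129 share was 50% in mE6, 99.9% in mC3, 45.6% in mB4 and 0.362% in mG3. Sc4mol and Lss, enzymes of sterol synthesis, had 86.5 FPKM in mE6 and 99.5 to 103 FPKM in the sisters, and 25.3 FPKM in mE6 and 29.8 to 33.7 FPKM in the sisters. The 29 neural progenitor genes had a median log2 difference of -0.04 and none was monoallelic in mE6. The 11 neuron genes had a median of 0.50, with 7 above every sister and 0 below, and none passed with edgeR. The 27 cell cycle genes had a median of 0.12, the 24 DNA methylation and Polycomb genes of -0.02, and none of either list was monoallelic in mE6. The 28 cadherin and protocadherin genes had a median of -0.23. Cdh20 was the only one of 25 that passed the allele test (edgeR adjusted p = 0.0240), against 0.247% of all genes. The call of Cdh20 was lost without mB4. With all 8 NPC clones Cdh20 was not tested, as clone 129 had 0 counts of it.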

How the data were processed

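Polyadenylated RNA was sequenced in paired 100-base reads, per the series' design text. The table deposited by the authors holds, per gene and library, counts (raw allele-informative observations), the 129 share of those counts (a ratio, printed as percent) and FPKM. Per the submitters' processing notes, TopHat 1.4.0, Cufflinks 1.3.0, SAMtools and build mm9 were used, and the step behind each column is not given in the sources used here. Counts were not treated as molecules, and intervals and floors of 3 counts cover counting error only. Rows joining several genes (331), unnamed fragments (1092) and names turned into dates (16) were counted but not named unless said. The 2 repeat libraries were not analysed here. Deposited starts count from 0, so 1 was added. Of 13274 genes with an annotated transcript start, adding 1 matched 5237, against 442 as deposited.

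Counts were tested with edgeR 4.0.16. For expression, TMM factors, filterByExpr and robust quasi-likelihood were used on mE6 minus the sisters. For allele shares, each clone gave 2 columns, with clone and allele terms and their interaction with mE6, for genes with 20 counts in all 4 clones. Adjustment was Benjamini-Hochberg over all genes at 0.05. Alternatives used DESeq2 1.42.0 and limma 3.58.1. Nothing states that clones were separate differentiations, so p-values measure the spread between these 3 sisters. CPM used TMM-scaled totals. Promoter windows were read from the mm9 genome at the deposited 5′ ends of genes with annotated strand. A nearby annotated transcript start was required only for the printed windows, so other windows may miss the promoter. The tests were checked on simulated data, where false calls exceeded the nominal rate.

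The members and lists were chosen with earlier results of these data known. Named were the 15 deepest genes monoallelic in mE6 only and those on a list, the 6 deepest with opposite alleles, the 10 silent genes with the highest lowest sister, the 12 largest ratios above and below, and up to 4 list members by adjusted p plus those passing the allele test. Lists without a passing gene, where adjusted p-values were nearly tied, are summarised. A named gene far above the sisters and a progenitor marker are not reported here.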

Additional observations from a re-analysis of the deposited data

How the results depend on the processing

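No paired analysis was possible because the replicate numbers of the sister clones follow accession order and mE6 is a single library. The 64 genes monoallelic in mE6 only became 33 when the major allele had to reach 95%, 20 with sisters at most 60% and 40 with at least 1 FPKM in mE6, and 93 to 111 with 1 sister left out. Counting 1 gene per overlap and no unnamed fragments, a choice added after seeing the data, left 55. The share of monoallelic genes in mE6, 6.95%, was 5.06% at 50 counts, 4.11% at 100 counts and 3.71% when the major allele had to reach 95%. Far above, the 7 genes became 29 at a ratio of 2 and 3 when CPM had to meet the ratio too, and 9 to 15 with 1 sister left out. Far below, the 26 became 15 with a pseudocount of 1 and 52 at a ratio of 2, and 31 to 45 with 1 sister left out. Silent genes numbered 13 to 16 with 1 sister left out. The 29 allele calls became 9 with all 8 NPC clones, and 16 to 32 with 1 sister left out. The single expression call became 0 with all 8 NPC clones, 0 with limma, 105 with DESeq2, and 0 to 3 with 1 sister left out. The median log2 level of the 64 genes, -0.65, was -0.40 with a pseudocount of 1, and -0.60 to -0.57 with 1 sister left out. Fitted log2 expression changed sign for Pcdhga11 (0.18 with all sisters, -0.048 to 0.45 with 1 left out), Pcdhgb5 (0.16, -0.062 to 0.44, and -3.74 with limma on FPKM) and Snord15b (-0.18, -0.67 to 0.14, and 7.56 with limma on FPKM). None of these 3 was called. Leaving a sister out asks less of the rules and gives the tests fewer samples; for the other changes the cause was not tested. Depth limits the shallow members, as 12 of the 64 rest on fewer than 100 counts.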

Other observations

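Genes past the allele test but outside the 64 genes were looked at after their values were seen. Decr1, a mitochondrial enzyme of unsaturated fatty acid oxidation, had a 129 share of 31.6% in mE6, against 82.3% in mC3, 78.2% in mB4 and 79.8% in mG3 (edgeR adjusted p = 0.0390). This call was lost with the non-robust fit (edgeR adjusted p = 0.0701), with the error from all 8 NPC clones (1) and with any sister left out (0.105 to 0.170). Its level was 11.7 FPKM in mE6, against 3.82 FPKM in mC3, 5.52 FPKM in mB4 and 1.43 FPKM in mG3. The expression test of Decr1 did not pass (edgeR adjusted p = 1). Gaa, the lysosomal acid alpha-glucosidase, had a 129 share of 46.4% in mE6, against 62.1% in mC3, 62.4% in mB4 and 61.9% in mG3 (edgeR adjusted p = 0.0486). This call was lost at a minimum of 50 counts (edgeR adjusted p = 0.0512), with the non-robust fit (0.0845), with all 8 NPC clones (1) and with any sister left out (0.150 to 0.255). Svep1, a large extracellular matrix protein, had a 129 share of 2.85% in mE6 from 386 counts, against 72.2% in mC3, 64.5% in mB4 and 70.6% in mG3 (edgeR adjusted p = 0.0151). This call was lost with all 8 NPC clones (edgeR adjusted p = 1) and with any sister left out (0.0568 to 0.0905).

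The next 3 genes, from those far below all sisters, were also named after their values were seen. Slc38a1, a neutral amino acid transporter, had 3.79 FPKM in mE6, against 18.3 FPKM in mC3, 15.6 FPKM in mB4 and 15.9 FPKM in mG3. Its 129 share was 94.0% in mE6, 51.2% in mC3, 92.6% in mB4 and 68.7% in mG3. Gjc1, the gap junction protein connexin 45, had 2.29 FPKM in mE6, against 23.0 FPKM in mC3, 16.4 FPKM in mB4 and 17.3 FPKM in mG3. Unlike Slc38a1, Gjc1 was biallelic in mE6, with a 129 share of 47.4%, and in all 3 sisters, with 49 to 50.9%. Smpdl3b, a membrane phosphodiesterase, had 1.60 FPKM in mE6 and 8.28 to 15.3 FPKM in the sisters, and a 129 share of 97.7% in mE6, against 28.9% in mC3, 48.1% in mB4 and 33.0% in mG3.

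On the X chromosome, which was outside the rule, 2 of 406 genes with at least 20 counts in mE6 took 10% or more of their counts from Cast, and neither was above every sister.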
